A study of Mus musculus with 10 samples.

Results

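Respiratory complex I (NADH:ubiquinone oxidoreductase) is assembled from subunits encoded in both the nuclear and the mitochondrial genome, and its nuclear genes carry the symbol Nduf. The genes described here were chosen by name: those with a symbol starting with Nduf, with reads aligned to an annotated mRNA outside the pseudogene families and with a poly(A) tail estimate that passed the quality tag of the tail caller. This gave 46 of the 13259 genes with a tallied read, and 19758 of the 2039762 tallied reads. By role, 36 of the 46 encode subunits and 8 encode assembly factors (the Ndufaf genes), while 2 carry the name without being complex I subunits. The latter are Ndufa4, now known as a subunit of cytochrome c oxidase (complex IV), and its relative Ndufa4l2, which had 2 reads. Of the 46 genes, 41 had at least 100 reads over the 10 libraries.

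The study sequenced poly(A) RNA of P19 cells, a mouse embryonal carcinoma line that can be driven into neurons, by nanopore direct RNA sequencing, in which each read is 1 RNA molecule read from its 3′ end with its tail. All cells were wild type and undifferentiated and were transfected with 50 nmol of siRNA, either a scrambled pool (siCtl) or 1 siRNA against Larp1 (siLarp1). RNA was taken at 24 h (3 libraries per group) or, after a second transfection, at 48 h (2 per group). LARP1 is an RNA-binding protein that holds the 5′ terminal oligopyrimidine (TOP) mRNAs of ribosomal proteins and translation factors, and it also contacts poly(A) tails and the poly(A)-binding protein. The libraries are called here by their group and the number in the deposited table (19, 21 and 22 at 24 h, 24 and 25 at 48 h). Which labelled replicate each one is was not shown.

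The libraries held 112566 to 422902 tallied reads. Larp1 itself, in RPM (reads scaled to an equal number of tallied reads per library), stood at 76.0, 84.3 and 85.1 in siCtl and 33.4, 44.9 and 19.1 in siLarp1 at 24 h, and at 169 and 123 against 18.5 and 24.9 at 48 h. Its mean in siLarp1 was 39.7% of that in siCtl at 24 h and 14.9% at 48 h. The fall passed the test at 48 h (log2 fold change −2.51, SE 0.44, adjusted p = 0.00364 by limma voom) and missed it at 24 h (−1.28, SE 0.35, adjusted p = 0.464). Embryonal carcinoma markers such as Pou5f1 summed to 3042 to 4011 RPM, neuron markers to 199 to 372 RPM and primitive endoderm markers to 0 to 19.1 RPM, with Sox17 and Neurod1 at 0 in every library. The embryonal carcinoma sum was mostly Pou5f1 (2280 to 3031 RPM), while Sox2 had 67.9 to 204 RPM and Dppa5a 8 reads in all. The neuron sum was mostly Stmn2 (151 to 279 RPM), while Map2 had 4 reads in all. At 24 h the siCtl and siLarp1 libraries were sequenced in separate pools, so an effect of the pool and one of the siRNA cannot be told apart at that time, and the siCtl libraries were the deeper ones. At 48 h all 4 libraries shared 1 pool. In bulk RNA of this kind, fewer cells with an RNA and less of that RNA per cell cannot be told apart.

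Complex I is an L-shaped enzyme of the inner mitochondrial membrane. Its matrix arm takes electrons from NADH and passes them along iron-sulfur clusters to ubiquinone, and its membrane arm pumps protons. The core subunits of the matrix arm are encoded in the nucleus, those of the membrane arm in the mitochondrial genome, and a shell of nuclear-encoded accessory subunits surrounds both. Cytosolic poly(A) tails are bound by poly(A)-binding protein and shorten with age, and mRNAs with very short tails lose that protein. The study quantified reads in a class of tails shorter than 30 nt and in one around 60 nt, and both classes are used here as a share of each gene's reads, the latter as 30 to 90 nt.

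The mean level over the 10 libraries was 47.1 to 615 RPM for the 41 genes with 100 reads or more, and 0.473 to 33.6 RPM for the other 5. Levels are compared between genes in RPM without scaling to length, since a direct RNA read counts 1 molecule. Ndufa4 was highest with a mean of 615 RPM (498 to 894). Ndufa7, an accessory subunit of the matrix arm, followed at 482 RPM (359 to 554), then Ndufa2 at 445 RPM (395 to 533), Ndufb8 at 422 RPM (346 to 526) and Ndufv3 at 403 RPM (293 to 486). The ranges of these last 4 overlap, and that of Ndufa4 overlaps those of Ndufa7, Ndufa2 and Ndufb8. The order of genes with overlapping ranges is not resolved by the spread between libraries. The core subunits lay lower, from Ndufs1 at 65.1 RPM to Ndufv2 at 296 RPM. The assembly factors included 4 of 8 under 100 reads (Ndufaf1, Ndufaf5, Ndufaf6 and Ndufaf7, 43 to 66 reads each).

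Median tail lengths over all reads ran from 85.5 nt for Ndufa5 to 124 nt for Ndufs1, the largest core subunit, among the 41 genes. The Ndufb genes spanned 87.3 nt (Ndufb8) to 108 nt (Ndufb5), and the core subunits 91.1 nt (Ndufv2) to 124 nt. Shares of tails under 30 nt ran from 0.0799% for Ndufa4 to 7.14% for Ndufa5. The 7 genes Ndufa1, Ndufa9, Ndufa10, Ndufa11, Ndufaf2, Ndufc1 and Ndufs6 are not described singly below and lay within both ranges, with 0.861% (Ndufc1) to 3.38% (Ndufa11) short tails and medians of 96.5 nt (Ndufa9) to 106 nt (Ndufa1). Among the core subunits, 3 stood near the upper end, namely Ndufs7 at 5.71%, Ndufv2 at 5.66% and Ndufs3 at 5.46%. The reads of Ndufs3 were split between its chromosome 2 copy and a copy on an assembly patch (148 and 144 reads), which cannot be told apart, and were summed.

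**Figure D1:**
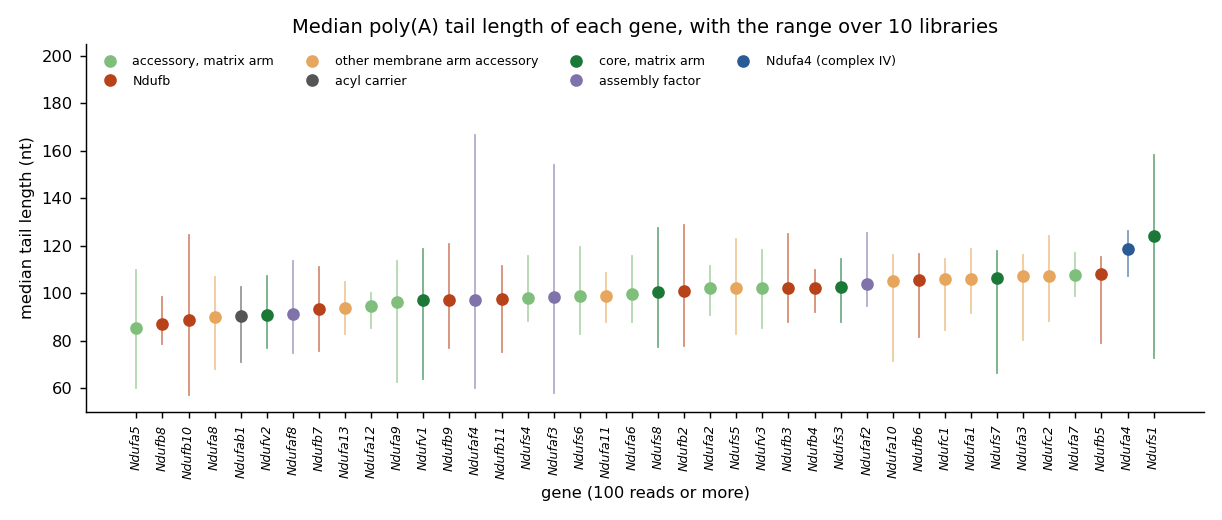
Median poly(A) tail length in nt (y axis) of 40 of the 41 genes with 100 reads or more (x axis, ordered by the median), with points for the median over all reads, vertical lines for the lowest and highest library median, and colours for the role. Ndufa5 sits lowest at 85.5 nt, and Ndufa4 (119 nt) and Ndufs1 (124 nt) sit highest, while most library ranges overlap those of their neighbours.

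Short tails were rare in Ndufa4. Of its 1252 reads, 1 had a tail under 30 nt (0.0799%, 95% Wilson interval 0.0141 to 0.451%, covering counting error only, as do all intervals and limits here). That read lay in siCtl 19, and the other 9 libraries had 0 of 60 to 274 reads. Among the 278 genes with at least 1000 reads the median share was 2.07%, and Ndufa4 had the lowest. Its share of 30 to 90 nt tails was 25.4% over all reads (18.7 to 35.6% across libraries), and its median tail was 119 nt. The lowest share among the 36 complex I subunits was 0.560% in Ndufa3 (2 of 357 reads, interval 0.154 to 2.02%, which overlaps that of Ndufa4).

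Pooled over the 46 genes, 2.78%, 2.05% and 1.97% of reads had tails under 30 nt in siCtl and 3.01%, 2.67% and 3.15% in siLarp1 at 24 h. These groups overlapped, through siCtl 19. At 48 h the pooled share was 2.02% and 2.26% in siCtl and 3.89% and 4.03% in siLarp1, so both siLarp1 libraries lay above both siCtl libraries. Over all genes the share was also higher in siLarp1 at both times, with 2.15 to 2.42% against 2.63 to 3.22% at 24 h and 2.82 to 2.96% against 3.37 to 4.21% at 48 h. Over the 13117 genes that are neither complex I genes nor TOP genes the groups overlapped at both times. The 79 ribosomal protein genes had 1.66 to 1.84% against 2.93 to 3.17% at 24 h and 2.27 to 2.74% against 4.15 to 4.47% at 48 h. The 37 nuclear genes of complexes II to V had 1.38 to 1.68% against 2.26 to 2.51% and 1.59 to 2.15% against 3.11 to 3.41%, again with no overlap at either time. Since the members were chosen with results of these data known, no p is given for these pooled shares.

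**Figure D2:**
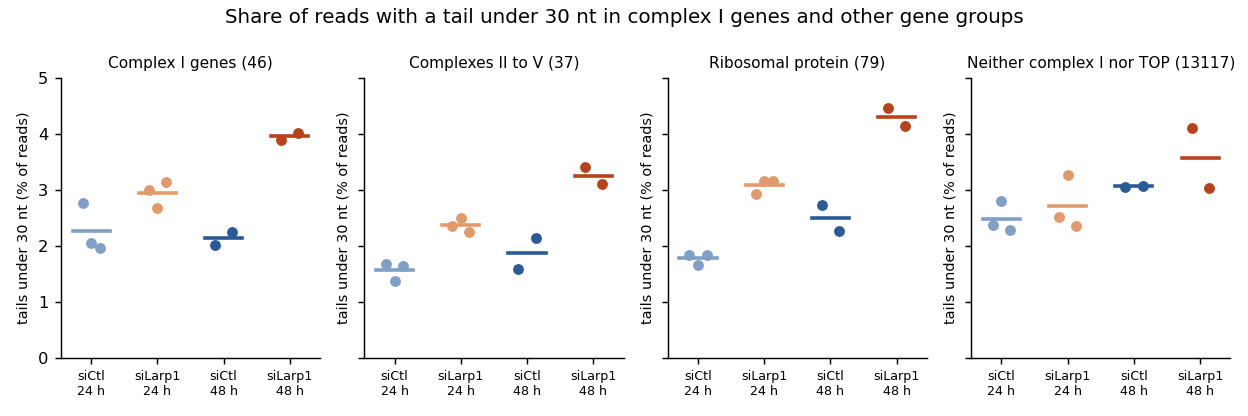
Share of reads with a tail under 30 nt (y axis, % of reads) in each library (points) and the mean of each group (lines) for complex I genes, complexes II to V, ribosomal protein genes and genes that are neither complex I nor TOP genes. In complex I genes the groups overlap at 24 h and separate at 48 h (2.02 and 2.26% against 3.89 and 4.03%).

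By role, the 10 Ndufb genes, which encode accessory subunits of the membrane arm, held the clearest difference. Their pooled share of tails under 30 nt was 1.98%, 1.34% and 1.22% in siCtl and 3.30%, 3.61% and 4.12% in siLarp1 at 24 h (means 1.52% ± 0.41 and 3.68% ± 0.42, SD, n = 3). At 48 h it was 1.44% and 1.97% in siCtl and 4.66% and 6.30% in siLarp1 (means 1.70% ± 0.37 and 5.48% ± 1.16, SD, n = 2). Every siLarp1 library was above every siCtl library of its time, by a ratio of means of 2.43 at 24 h and 3.22 at 48 h. For tails under 20 nt the groups overlapped at 24 h. The tallies behind these shares were small, with 10 to 16 short reads of 303 to 388 in the siLarp1 libraries at 24 h and 16 and 19 of 254 and 408 at 48 h. The Wilson interval of siLarp1 25, for example, ran from 3.91 to 9.99%.

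The other roles did not separate at both times. The 9 other accessory subunits of the membrane arm (Ndufa, Ndufc and Ndufs5) had 1.19 to 2.26% in siCtl and 0.410 to 2.22% in siLarp1 at 24 h, and 0.836 and 2.06% against 2.07 and 4.17% at 48 h. The 9 accessory subunits of the matrix arm overlapped at 24 h (1.74 to 3.33% and 1.63 to 3.38%) and were higher in siLarp1 at 48 h (2.11 and 2.33% against 3.10 and 4.71%). The 7 core subunits overlapped at both times, at 2.56 to 6.20% and 3.30 to 6.72% at 24 h and at 2.05 and 4.88% against 4.27 and 4.91% at 48 h. The 8 assembly factors overlapped at 24 h and, on few reads, were lower in siLarp1 at 48 h (4.17 and 4.55% against 2.50 and 3.70%). Ndufab1, the mitochondrial acyl carrier protein, which is a subunit of both arms, overlapped at both times, with 6.93%, 2.61% and 3.79% in siCtl and 9.09%, 0% and 5.0% in siLarp1 at 24 h and 5.26% and 5.0% against 5.66% and 3.03% at 48 h. Without the Ndufb genes, the pooled share of the remaining complex I genes differed by 0.195 percentage points at 24 h, with overlap, and by 1.19 at 48 h, without overlap. Whether one role differs from another in its response was not tested.

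**Figure D3:**
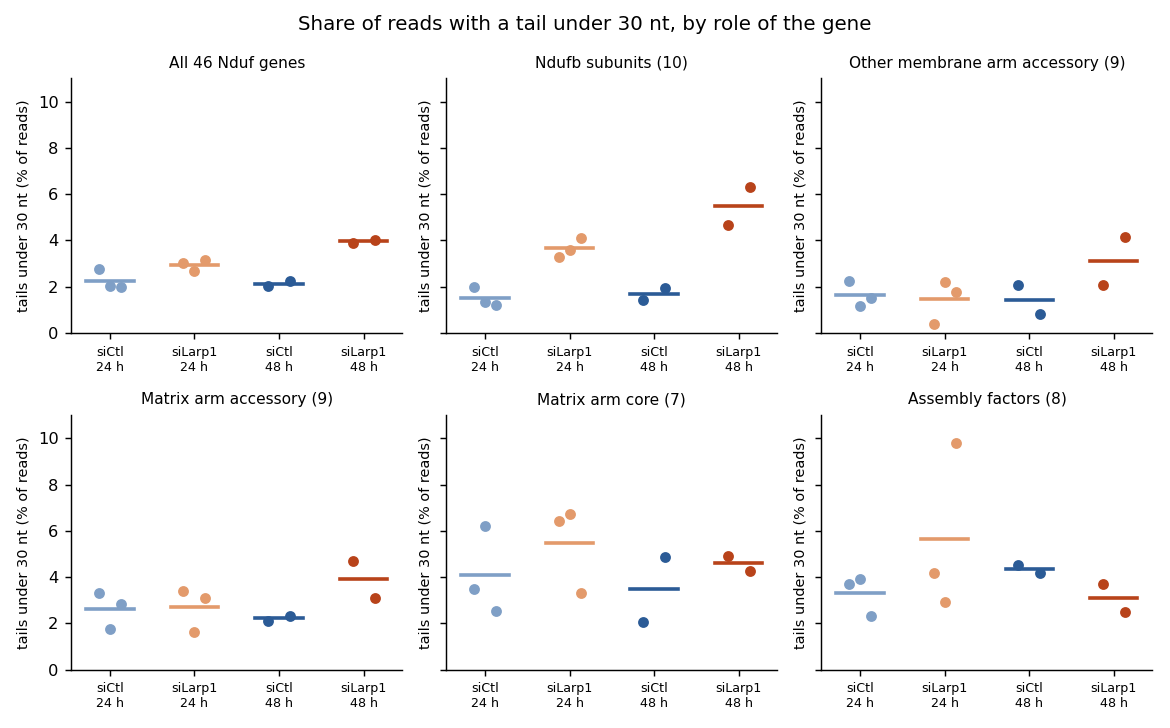
Share of reads with a tail under 30 nt (y axis, % of reads) in each library (points) and the mean of each group (lines) for all 46 Nduf genes and 5 roles. The Ndufb panel separates siLarp1 from siCtl at 24 h (3.30 to 4.12% against 1.22 to 1.98%) and at 48 h (4.66 and 6.30% against 1.44 and 1.97%).

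Gene by gene, 34 of the 46 had enough reads in and out of the short class to be tested. The test was a quasi-binomial logistic model of each gene's tallies over the 10 libraries, with dispersions moderated in limma and adjusted over all 1756 genes tested. Averaged over both times, 1 of the 34, Ndufb9, rose with an adjusted p under 0.05, where 3.36% of all genes tested did, and 0 fell, as over all genes tested (0.0%). At an unadjusted p under 0.05, 8 of 34 were higher (23.5%, against 10.9% of all genes tested) and 0 were lower (against 2.79%). Of these 8, 5 were Ndufb genes (Ndufb2, Ndufb5, Ndufb7, Ndufb8 and Ndufb9), joined by Ndufa6, Ndufa13 and the core subunit Ndufs8. The median difference in share, siLarp1 minus siCtl, was 1.36 percentage points over the 34 genes and 0.568 over all genes tested.

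At single times no complex I gene passed the adjusted threshold. At 24 h 2.16% of all genes tested did, and at an unadjusted p under 0.05 the same quasi-binomial test gave 4 of 34 higher (Ndufb4, Ndufb5, Ndufb7 and Ndufb9, against 8.26%). Groups without overlap at 24 h were seen upward in 2 of 34, Ndufb4 and Ndufb5, against 7.06% of all genes tested, and downward in 0 of 34, against 5.81%. At 48 h 1.25% of all genes passed, and 6 of 34 were higher at an unadjusted p under 0.05 (Ndufa6, Ndufa13, Ndufb2, Ndufb8, Ndufb9 and Ndufb11, against 9.0%). Groups without overlap at 48 h were seen upward in 9 of 34, against 20.2%, and downward in 3 of 34 (Ndufa8, Ndufa12 and Ndufb4), against 9.05%. These shares of non-overlapping genes lie near those of all genes tested. Among the Ndufb genes the share was higher in siLarp1 in 9 of 10 at each time, where 55.1% of all genes tested were higher at 24 h and 57.4% at 48 h.

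The annotated 3′ ends of the 5 Ndufb genes with an unadjusted p under 0.05 on average over both times, of which Ndufb9 alone passed the adjusted threshold, are shown with that of Ndufa4. By the annotation, a tail would begin after the last base printed. Each is the last 30 bases of the transcript with the most reads, 5′ to 3′ on the transcript strand (build mm10, GENCODE vM21 transcripts), with the polyadenylation signal AATAAA in capitals.
Ndufb9, chr15:58939459-58939488, plus strand: acacttgccctAATAAAaggaactagacac
Ndufb7, chr8:83571597-83571626, plus strand: gaAATAAAagctttgggtcacctgcctaaa
Ndufb8, chr19:44550240-44550269, minus strand: aaatccctAATAAAgctcagtgctctggtt
Ndufb5, chr3:32751537-32751566, plus strand: gAATAAATAAAgccttagagtttacctgta
Ndufb2, chr6:39603353-39603382, plus strand: ctttacacagaAATAAAtttcttcaatttg
Ndufa4, chr6:11900292-11900321, minus strand: atataagaactaaagtattaggatgtaaag
All 6 lie in the last exon, at the annotated transcript ends, and where the tails of these reads begin was not measured here. Ndufb5 holds a pair of overlapping signals, and in the Ndufa4 window these letters do not occur. The signal was searched on the transcript strand only, in genes whose most-read transcript had at least 30 reads. It was found in 7 of 10 Ndufb genes, in 23 of 44 complex I genes (52.3%), in 60.8% of 79 ribosomal protein genes and in 56.5% of all 5038 such genes.

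The 5′ ends were looked at because LARP1 holds mRNAs by a terminal oligopyrimidine run, which classically starts with C followed by at least 4 more pyrimidines. The first 20 bases of the same annotated transcripts are printed with the leading run of C and T in capitals, for the Ndufb genes with the longest runs and for 2 genes with short or no runs.
Ndufb9, chr15:58933756-58933775, plus strand: TCCTTCCggttccgcctcac
Ndufb11, chrX:20617600-20617619, minus strand: CTCTTTagaagcttgctgtc
Ndufb8, chr19:44555421-44555440, minus strand: TTTTgcgcatgtgcagagtg
Ndufb7, chr8:83566671-83566690, plus strand: ggggtgtcagcgagccagga
Ndufb9 opened with 7 pyrimidines but with T, Ndufb11 with 6 and with C, Ndufb8 with 4 and Ndufb7 with none. By the annotated start, 1 of 44 complex I genes began with C and 4 or more pyrimidines (2.27%, Ndufb11), as did 2.52% of the 5038 genes and 11.4% of the ribosomal protein genes. The ribosomal protein genes are classical TOP genes, and most of them were not found by this rule. The starts used in these cells were not measured here.

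Ndufb9, a subunit at the tip of the membrane arm, lies at chr15:58933756-58939488 with 4 exons. At 24 h its short reads were 2 of 65, 0 of 92 and 2 of 145 in siCtl and 1 of 32, 0 of 33 and 4 of 35 in siLarp1. At 48 h they were 0 of 29 and 0 of 60 in siCtl and 2 of 60 and 4 of 27 in siLarp1. The groups overlapped at 24 h and were apart at 48 h, and most of the siLarp1 short reads came from siLarp1 22 and siLarp1 25. Summed over libraries, the share was 1.32% in siCtl and 5.0% in siLarp1 at 24 h. At 48 h it was 0 of 89 in siCtl, which allows a share of up to 3.37% over the group, and 6.90% in siLarp1. The siLarp1 share was 2.05 times that limit, without its own counting error, so no minimum fold is given. The mean change over both times had p = 0.000388 and adjusted p = 0.0152 by the quasi-binomial test. The call was lost without siLarp1 22 (adjusted p = 0.356), without siLarp1 25 (0.187) and without siCtl 25 (0.215). It was also lost at a barcode confidence of at least 0.9 (0.0531), for tails under 40 nt (0.414) and for tails under 20 nt, where 0 complex I genes were called.

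Ndufb8 was the Ndufb gene with the most reads (891). Its short-tail share was 3.57%, 2.21% and 1.51% in siCtl and 4.17%, 3.57% and 5.26% in siLarp1 at 24 h, where siCtl 19 and siLarp1 21 met. At 48 h it was 2.08% and 1.39% against 7.14% and 6.98%, without overlap. The change averaged 1.60 in log2 odds (SE 0.68, adjusted p = 0.175 by the quasi-binomial test) and did not pass.

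Ndufb7, a subunit of the intermembrane-space face, had 0 of 66, 1 of 93 and 0 of 122 short reads in siCtl and 2 of 43, 2 of 39 and 0 of 41 in siLarp1 at 24 h. At 48 h it had 1 of 28 and 0 of 41 against 2 of 39 and 2 of 30. The groups overlapped at 24 h through siLarp1 22 and were apart at 48 h, and the average change of 2.65 in log2 odds (SE 1.2) had an adjusted p of 0.148 by the quasi-binomial test.

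Ndufb5 had no short read in siCtl at 24 h (0 of 258, which allows up to 1.16%) and 1 in each siLarp1 library (2.59% of 116 reads). At 48 h its groups overlapped, with 0 of 26 and 3 of 36 in siCtl and 3 of 36 and 1 of 21 in siLarp1. Ndufb2 had 1 short read of 128 in siCtl and 2 of 69 in siLarp1 at 24 h. At 48 h Ndufb2 had 0 of 48 in siCtl, which allows up to 6.25%, and 4 of 43 in siLarp1 (9.30%). That is 1.49 times the limit, without the counting error of the siLarp1 share, so no minimum fold is given. Ndufb4 went up at 24 h (0 to 2.30% in siCtl, 2.94 to 10.3% in siLarp1) and down at 48 h (2.50 and 2.70% against 0 and 1.85%), without overlap either time and on 5 and 1 short reads in siLarp1. None of these 3 genes passed the adjusted threshold at either time or on average.

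**Figure D4:**
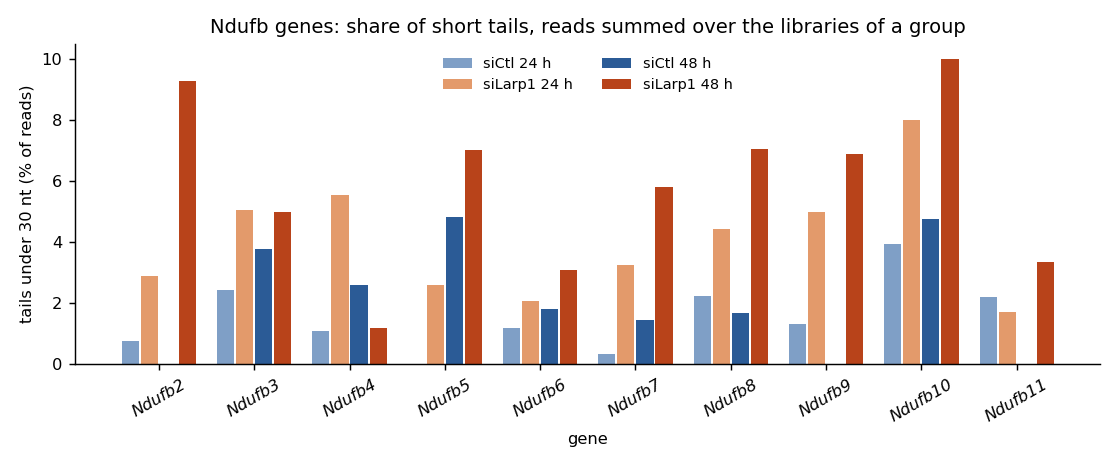
Share of reads with a tail under 30 nt (y axis, % of reads) for each of the 10 Ndufb genes (x axis), with bars for the reads summed over the libraries of a group. In Ndufb9, for example, the bars stand at 1.32% and 5.0% at 24 h and at 0% and 6.90% at 48 h for siCtl and siLarp1, and most bars rest on fewer than 10 short reads.

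Outside the Ndufb genes, Ndufa6, an LYR-motif accessory subunit of the matrix arm, had 7.14%, 1.71% and 4.88% short tails in siCtl and 6.25%, 5.71% and 6.45% in siLarp1 at 24 h. At 48 h Ndufa6 had 2.56% and 1.85% against 9.09% and 13.3%, with the groups apart (on average 1.5 in log2 odds, SE 0.69, adjusted p = 0.232 by the quasi-binomial test). Ndufa13, also known as Grim19, had 0 of 95 in siCtl at 48 h, which allows up to 3.16%, and 3 of 86 in siLarp1. Ndufs8, an iron-sulfur core subunit, had 0 of 44 (up to 6.82%) against 2 of 33 at 48 h and 3.06% against 8.47% over the summed reads at 24 h. Among accessory subunits outside the Ndufb genes, Ndufa7, Ndufa2 and Ndufv3 had the most reads. Ndufa7 overlapped at both times (1.76 to 3.12% and 0 to 3.33% at 24 h, 2.22 and 4.69% against 0 and 5.88% at 48 h), as did Ndufa2 and Ndufv3. Downward and without overlap were Ndufa12 (4.35 and 3.28% against 2.04 and 3.23%) and Ndufa8 (1 of 12 and 1 of 23 against 0 of 20 and 0 of 14) at 48 h. For Ndufa12 this rested on 4 short reads of 107 in siCtl and 2 of 80 in siLarp1, and its nearest libraries stood at 3.28% and 3.23%. The assembly factor Ndufaf4, with too few short reads to be tested, had 1 short read in each siCtl library and 0 of 17 in siLarp1 at 24 h, which allows up to 17.6%.

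Tails of 30 to 90 nt made up 38.6%, 36.9% and 39.8% of the reads of the 46 genes in siCtl and 36.9%, 36.6% and 37.1% in siLarp1 at 24 h, with overlap. At 48 h they made up 42.9% and 42.5% against 39.5% and 38.2%, lower in both siLarp1 libraries, and over all genes they were lower at 48 h too (41.7 and 40.8% against 39.9 and 37.0%). In the Ndufb genes the 30 to 90 nt share was 43.7%, 42.1% and 41.8% in siCtl and 36.6%, 37.4% and 38.1% in siLarp1 at 24 h. The Ndufb share at 48 h was 46% and 45.9% in siCtl and 43.1% and 38.2% in siLarp1. The Ndufb groups were thus apart and lower at both times, with differences of −5.11 and −5.33 percentage points. The 78 mitochondrial ribosomal protein genes were lower at both times too (40.6 to 43.5% against 38.1 to 39.8%, and 45.1 and 46.5% against 35.0 and 40.2%). The 9 other membrane arm accessory genes went the other way at 24 h (33.7 to 38.9% against 39.3 to 41.8%) and were lower at 48 h (41.5 and 41.6% against 39.6 and 39.7%).

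Of the 41 genes tested for this class, 0 passed the adjusted threshold in either direction on average over both times in the quasi-binomial test, where 0.192% of all 2610 genes tested passed upward and 0.115% downward. At an unadjusted p under 0.05, 1 was lower, Ndufb9, against 5.52% of all genes, and 0 were higher, against 1.95%. Ndufb9 had 53.8%, 51.1% and 42.8% of reads in this class in siCtl and 31.2%, 33.3% and 20.0% in siLarp1 at 24 h. Its share at 48 h was 55.2% and 45% against 38.3% and 22.2%. It was the only one of the 41 whose groups stood apart and lower at both times, which 1.61% of all genes did, and its average change was −1.07 in log2 odds (SE 0.30, p = 0.00038, adjusted p = 0.0766 by the quasi-binomial test).

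At 24 h the groups of 5 of 41 were apart and lower (Ndufb3, Ndufb9, Ndufb10, Ndufs4 and Ndufv2), against 7.16%, and those of 3 were apart and higher (Ndufb6, Ndufs5 and Ndufv1), against 4.71%. Ndufs4, whose loss in mice causes a Leigh-like encephalopathy, had 48.0%, 38.5% and 44.1% in siCtl and 32.5%, 30.8% and 22% in siLarp1. Ndufs5 had 33.8%, 25.4% and 38.0% against 45.5%, 56.7% and 51.2%. Both overlapped at 48 h, and neither passed the adjusted threshold at 24 h (adjusted p = 0.467 and 0.358 by the quasi-binomial test). At 48 h 9 of 41 were apart and lower, against 23.5%, and 3 of 41 apart and higher (Ndufaf8, Ndufb3 and Ndufc2), against 10.5%. The median difference over both times was −2.50 percentage points in the 41 genes and −2.16 over all genes tested.

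The median tail of the 46 genes pooled was 101, 104 and 101 nt in siCtl and 105, 105 and 104 nt in siLarp1 at 24 h, and 95.5 and 97.5 nt against 98.0 and 99.6 nt at 48 h. The siLarp1 libraries were higher at both times, by 2.79 and 2.34 nt. The median change over all genes tested was above 0 too, though single genes went either way. By gene, the median fitted change was 2.29 nt at 24 h and 2.48 nt at 48 h in the 40 complex I genes tested. Over all 2509 genes tested it was 1.27 and 2.81 nt. On average over both times it was 0.447 nt in the 40 genes and 2.10 nt over all genes tested. Over the 36 subunits alone, or at a mapping quality of at least 10, the pooled groups overlapped at both times. They also overlapped at 24 h without the Ndufb genes, with all quality tags, at a barcode confidence of at least 0.9 and with each gene counted once. The difference at 48 h was 1.33 nt without siCtl 24 and 1.51 nt without siLarp1 25. The Ndufb genes had 96.6, 100 and 101 nt against 104, 103 and 103 nt at 24 h and overlapped at 48 h (92.5 and 93.6 nt against 92.2 and 98.2 nt). The separation of the Ndufb medians at 24 h was lost without Ndufb9 (a difference of 1.49 nt) and with all quality tags (2.37 nt), and that of the class around 60 nt at 24 h was lost for tails of 45 to 75 nt (−2.29 percentage points).

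By gene, 0 of 40 tested medians passed the adjusted threshold in limma on average over both times (0.0% of all 2509 genes upward and 0.0399% downward). At an unadjusted p under 0.05, 1 was higher, Ndufb9 (16.5 nt on average, adjusted p = 0.635 by limma), against 4.54% of all genes, and 0 were lower, against 1.95%. The median of Ndufb9 was 86.1, 87.5 and 100 nt in siCtl and 118, 111 and 121 nt in siLarp1 at 24 h, apart, and 76.9 and 97.2 nt against 94.3 and 112 nt at 48 h, with overlap. At 24 h Ndufa8 and Ndufb10 were also apart and higher (3 of 40 in all, against 6.38%) and Ndufb6 apart and lower (1 of 40, against 5.38%). At 48 h 6 of 40 were apart and higher, against 20.8%, and 5 of 40 apart and lower, against 13.1%. Among the higher ones was Ndufs8, at 94.5 and 98.4 nt in siCtl and 113 and 127 nt in siLarp1. Ndufb5 lay lower at 48 h, at 104 and 110 nt against 79 and 103 nt.

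The level of the complex I mRNAs was close in both conditions at 24 h. Pooled, the 46 genes held 9462, 9517 and 10213 RPM in siCtl and 10276, 9235 and 9917 RPM in siLarp1 at 24 h. At 48 h they held 10127 and 9439 RPM against 9365 and 8861 RPM, lower in both siLarp1 libraries, with a mean 93.1% of that of siCtl. Among the roles, the core subunits had 1297 and 1148 RPM in siCtl and 1007 and 972 RPM in siLarp1 at 48 h. The accessory genes of the matrix arm were apart and lower too (2940.5 and 2891 RPM against 2755 and 2682 RPM). So were the other accessory genes of the membrane arm (2159 and 2011 RPM against 1791 and 1993 RPM) and Ndufab1. The Ndufb genes overlapped (2470 and 2280 RPM against 2520 and 2109 RPM).

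For abundance, no complex I gene passed the adjusted threshold in limma voom on average over both times. The count was 0 of 41, against 0.115% of all 2610 genes tested upward and 0.115% downward. At an unadjusted p under 0.05 the same test gave 1 higher, Ndufa7 (log2 fold change 0.27), against 3.33% of all genes, and 2 lower, Ndufa5 (−0.51) and Ndufa6 (−0.32), against 3.91%. Each had an adjusted p of 0.64. At 24 h 5 of 41 were apart and higher (Ndufa13, Ndufaf8, Ndufb5, Ndufb11 and Ndufv3), against 4.71% of all genes, and 2 apart and lower (Ndufa6 and Ndufa12), against 6.86%. At 48 h 14 of 41 were apart and lower (34.1%, against 16.2%) and 4 of 41 apart and higher (Ndufa3, Ndufa7, Ndufaf3 and Ndufb6, against 18.1%). The median log2 fold change at 48 h was −0.09 in the 41 genes and 0.03 in all genes tested, and −0.01 in both at 24 h.

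The groups of Ndufa12 and Ndufa6 were apart and lower at both times (2 of 41, 4.88%), as were those of 1.65% of all genes tested. Ndufa12 had 373, 384 and 383 RPM in siCtl and 359, 337 and 331 RPM in siLarp1 at 24 h, and 409 and 342 RPM against 303 and 257 RPM at 48 h. Ndufa6 had 290, 340 and 291 RPM against 267, 262 and 198 RPM at 24 h, and 346 and 303 RPM against 272 and 249 RPM at 48 h. Ndufa7 overlapped at 24 h and stood at 400 and 359 RPM against 525 and 548 RPM at 48 h.

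**Figure D5:**
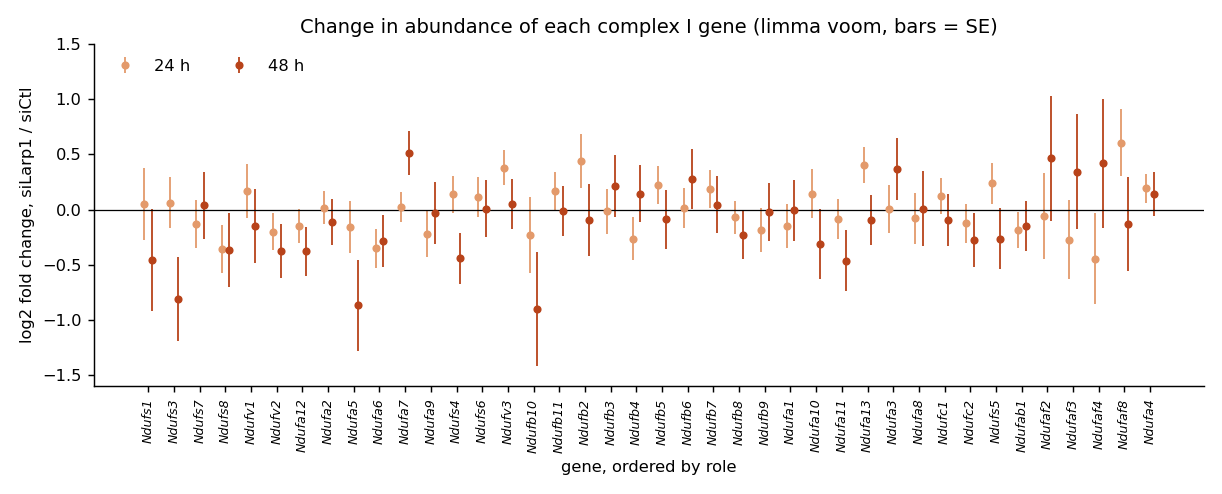
Log2 fold change in abundance, siLarp1 against siCtl (y axis), for 40 of the 41 genes with 100 reads or more (x axis, ordered by role), at 24 h and at 48 h, with bars for the standard error of limma voom. No gene passes the adjusted threshold, and 27 of the 41 genes lie below 0 at 48 h (46.9% of all genes tested) against 21 of 41 at 24 h (51.8%).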

How the data were processed

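Poly(A) RNA of 10 P19 libraries was sequenced directly on a nanopore device. The authors called bases with Guppy, aligned reads with minimap2 (version 2.20) to mm10 transcripts, assigned barcodes with Deeplexicon and estimated tail lengths with Nanopolish. The deposited table lists, for each read and transcript it aligned to, the tail length in nt, a mapping quality score and the fraction that gives the confidence of the barcode. It holds no counts and 2652217 alignments of 2577272 reads.

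Here alignments to annotated transcripts with the PASS tag were kept, without pseudogenes and mitochondrial transcripts, and each read was tallied once per gene. Of complex I reads, 13.2% had a mapping quality under 10 (28.8% of all tallied reads). Genes needed 100 reads over the 10 libraries, for tail classes also 5 reads in and out of the class, and for medians 3 reads in each library. Tests used the 10 libraries with 4 group means. Tail classes were tested with a quasi-binomial logistic model per gene, dispersions moderated with squeezeVar of limma and held at 1 or above, medians with limma weighted by reads, and abundance with limma voom scaled to tallied reads. P-values are two-sided and adjusted by Benjamini-Hochberg over all genes tested. Each model was tested on simulated data, where the test of short tails was slightly liberal before adjustment and missed most changed genes.

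The complex I genes and all gene lists were chosen with earlier results of these data known. Genes were named by rule: for each measure the 6 with the most reads, all with an adjusted p under 0.05, the 3 with the largest change in each direction and time among those whose groups do not overlap, and Larp1. Other genes named (such as Ndufb7, Ndufb11, Ndufa13 and Ndufs8 for short tails) were named where a count was small, after their values were seen, and the sequences were chosen in the same way. Alternatives were other tail classes, filters, weights, scalings, a replicate block and leaving out each library. Of the 41 genes with 100 reads or more, 1 enters the counts and pools but is not reported singly here. Analyses used R 4.3.3 with limma 3.58.1 and Python 3.11.15 with pandas 2.3.3. The study's replicates are biological, but the table does not tie its library numbers to the labelled replicates.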

Additional observations from a re-analysis of the deposited data

Results flagged for a closer look

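In 4 complex I genes every siLarp1 library moved one way against the siCtl libraries at 24 h and the other way at 48 h. The difference between the times was tested in the same models, and in none of the 4 genes did it pass the adjusted threshold. The share of all genes tested that reversed in this way was not counted. The 4 are thus not read as a trait of the complex I genes. The share of Ndufb4 tails under 30 nt was 4.51 percentage points higher in siLarp1 at 24 h and 1.68 lower at 48 h, a difference of −6.18 points (adjusted p = 0.674 by the quasi-binomial test with limma). The share of Ndufb3 tails of 30 to 90 nt went from −11.2 to 19.5 points, a difference of 30.7 (adjusted p = 0.812 by the same test). That of Ndufb6 went from 9.22 to −10.9 points, a difference of −20.2 (adjusted p = 0.883 by the same test). The level of Ndufa13 was 81.8 RPM higher in siLarp1 at 24 h and 19.1 RPM lower at 48 h, a difference of −101 RPM (adjusted p = 0.994 by limma voom). At 24 h, but not at 48 h, the conditions were sequenced in separate pools, and the part of this in these reversals was not tested.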

How the results depend on the processing

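The pooled Ndufb share of tails under 30 nt stayed higher in siLarp1 at both times without any one library and without Ndufb9, but the difference shrank to 0.173 (24 h, with overlap) and 0.975 (48 h) percentage points for tails under 20 nt and was 5.69 at 48 h for tails under 40 nt. At 48 h the sign turned without siLarp1 25 for the Ndufb median tail length (range over left-out libraries −0.903 to 5.10 nt), and without siCtl 24 (34.9) or siLarp1 25 for the Ndufb level (−265 to 145.5 RPM). The Ndufb 30 to 90 nt difference at 48 h was −2.86 points without siLarp1 25, and that of all complex I genes at 24 h −0.886 without siCtl 22. The complex I level differed by −155 to 366 RPM at 24 h, turning sign without siCtl 19, siCtl 21 or siLarp1 19, and by −1014 (without siCtl 25) to −326 RPM (without siCtl 24) at 48 h, with −419 without siLarp1 25.

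The numbers of the libraries were not taken to pair them. Over abundance, median and both tail classes the correlation of same-numbered libraries' deviations ran from −0.0373 to 0.126 (−0.0206 to 0.0766 for tails under 30 nt). Not every library correlated best with its own number. For abundance, though, all same-numbered values were positive (0.0037 to 0.126). Each siCtl library correlated best with its own number for abundance, and for tails under 30 nt at 24 h but not at 48 h. Pairing is thus not excluded. With the number as a replicate block, genes called for tails under 30 nt went from 38 at 24 h, 22 at 48 h and 59 on average to 0, 0 and 0, complex I genes called from 1 to 0 (Ndufb9, adjusted p = 0.848) and those at an unadjusted p under 0.05 from 8 to 1. The block also gave 6 genes lower and 1 complex I gene (Ndufb9, adjusted p = 0.025) for tails of 30 to 90 nt, 4 lower for the median and 8 higher and 17 lower for abundance.

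Genes called higher for short tails numbered 6, 3 and 28 at under 20 nt, with 0 complex I genes called and 0 at an unadjusted p under 0.05, and 98 at 24 h and 96 on average with 0.5 added to the tallies; 2 were lower with all quality tags and 2 at under 40 nt. At a mapping quality of at least 10, 2 complex I genes were called (Ndufb9 and Ndufb2), and 1 gene was lower for 30 to 90 nt, 0 for the median and 1 for abundance. Ndufb9 missed the threshold at a barcode confidence of at least 0.9 (adjusted p = 0.0531), where Ndufb7 passed (0.0261), and at under 40 nt (0.414), where Ndufv3 was the 1 complex I gene called. Tails of 45 to 75 nt gave 2 genes higher, and all quality tags 7 lower. For the median, 0 were lower at a confidence of at least 0.9 and 14 by mean log2 length. For abundance, 0 were higher at that confidence, 1 when scaled to reads not on TOP genes, 5 lower with at least 30 reads, and 18 higher and 17 lower with no filter.

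Leaving out each library gave 14 to 45, 3 to 26 and 27 to 66 genes higher for short tails at 24 h, at 48 h and on average and 0 to 3 lower. The counts fell by more than 1.5 times at 24 h without siLarp1 22 (14), siLarp1 21 (21) or siCtl 21 (25), at 48 h without any of its libraries (siLarp1 24, 3, siCtl 25, 5, siCtl 24, 11, siLarp1 25, 12), and on average without siCtl 25 (27) or siLarp1 24 (33). It gave 0 to 1 complex I genes called (0 without siLarp1 22, siCtl 25 or siLarp1 25) and 3 to 8 at an unadjusted p under 0.05 (3 without siCtl 25, 5 without siLarp1 25). It gave 0 to 7 higher and 0 to 5 lower for 30 to 90 nt, with 0 to 1 complex I genes (Ndufb9 without siCtl 22, adjusted p = 0.0219), 0 to 1 higher and 0 to 5 lower for the median, and 0 to 5 higher and 1 to 5 lower for abundance.

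Over all complex I genes, the short-tail difference was 0.0595 (24 h) and 0.455 (48 h) points at under 20 nt and 0.195 and 1.19 without the Ndufb genes. At 48 h it was 1.64 at a confidence of at least 0.9, 2.01 at a mapping quality of at least 10 and 2.09 for subunits alone. The 30 to 90 nt difference was −0.399 at 24 h without the Ndufb genes, and at 48 h −4.55 with all tags, −2.87 for 45 to 75 nt and −2.84 with each gene counted once. The median difference at 24 h was 1.27 nt for subunits alone. In the Ndufb genes at 24 h the 30 to 90 nt difference was −4.11 with all tags, −2.29 for 45 to 75 nt, −6.85 with each gene counted once and −3.33 without Ndufb9, and the median difference 2.37, 6.38 (each gene once) and 1.49 nt (without Ndufb9). At 48 h the median difference was 5.50 nt at a confidence of at least 0.9. Leaving out genes from the pools was chosen after seeing the data. The causes of these shifts were not tested. Depth limits the single-gene shares, since no tested complex I gene had more than 8 short reads in 1 library.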

Other observations

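The mRNAs of the complex I core subunits encoded in the mitochondrial genome, pooled, carried far shorter tails than the nuclear ones. Their pooled median was 46.7 to 51.5 nt across the 10 libraries, and 90.5 to 95.2% of their reads had tails of 30 to 90 nt. Their share of tails under 30 nt was 3.08 to 4.50% in siCtl and 3.21 to 3.78% in siLarp1 at 24 h, and 5.46 and 6.30% against 6.73 and 7.77% at 48 h, apart at 48 h and not at 24 h.

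Complex I assembly factors with other names, such as Ecsit, Acad9 and Nubpl, summed to 259 to 497 RPM, and their short-tail shares overlapped at both times (3.57 to 5.38% and 2.56 to 3.92% at 24 h, 2.44 and 7.02% against 4.0 and 8.0% at 48 h).

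The complex I genes have short transcripts, with a median length of 921 nt against 1825 nt for the genes tested for short tails, and 26 of the 46 are at or under 1000 nt. Other genes of up to 700 nt that are neither TOP genes nor of complexes II to V had 1.60 to 2.01% short tails in siCtl and 2.72 to 2.89% in siLarp1 at 24 h, and 2.45 and 2.63% against 3.03 and 3.44% at 48 h, apart at both times. The 15 complex I genes of up to 700 nt overlapped at 24 h (1.21 to 2.11% and 1.33 to 2.08%) and were higher in siLarp1 at 48 h (2.12 and 1.07% against 3.42 and 3.95%). The part of transcript length in the complex I values was not tested.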
